A study of Homo sapiens with 8 samples.

Results

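MM1.S cells treated with MS177 were compared with cells treated with the solvent DMSO across all 16295 genes listed in the expression table. Every gene with a column value entered, and 14164 of the 16295 genes passed a filter on low reads and were tested. MM1.S is a human plasma-cell line derived from multiple myeloma, grown in RPMI1640 with serum. The comparison used 4 of the 8 libraries of the series, 2 with DMSO and 2 with 0.5 uM MS177, all collected after 24 h. The remaining 4 libraries, 2 with 0.5 uM of MS177N1 and 2 with 0.5 uM of C24 for the same 24 h, entered the fit to help estimate the spread between replicates. The data thus come from 1 cell line, 1 dose and 1 time. Whether the 2 replicates of a group were separate cultures is not stated in the labels, so every p-value reflects the spread between these libraries alone, and that spread may be technical.

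EZH2 is the catalytic subunit of Polycomb repressive complex 2 (PRC2), which methylates histone H3 at lysine 27 and keeps genes silent. In B cells it is high in the germinal centre, and it is often abundant in myeloma. MS177 is a bifunctional degrader, built from an EZH2 inhibitor and a ligand of cereblon, the substrate receptor of a ubiquitin ligase. C24 is the inhibitor alone, and MS177N1 is a chemically close control that leaves EZH2 undegraded. The question the comparison addresses is which transcripts differ from the solvent control after treatment of myeloma cells with the degrader.

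With MS177, 4097 of the 14164 genes tested rose (28.9%) and 4110 fell (29.0%), at a limma adjusted p under 0.05. At least 2-fold, 1364 rose (9.63%) and 646 fell (4.56%). A share of members called near 57.9% in both directions together is therefore the background against which every group of genes below is to be read. The share that fell also differed by level, from 9.57% in the lowest quartile of level to 48.9% in the highest. Levels are reads divided by the authors' size factors (normalized reads), and changes are log2 fold changes of normalized reads plus 1, as MS177 minus DMSO. Reads in listed genes lay between 20000665 and 26619099 per library. The first principal component held 63.6% of the variance and placed the MS177 libraries at 81.2 and 82.2, against -28.1 to -25.2 for the other 6. Mitochondrially encoded genes, whose share moves with RNA quality as well as with the organelle, took 2.32% and 2.31% of reads with DMSO, 1.80% and 2.001% with MS177, and 1.64% to 1.91% with the other compounds. Their part in the changes below was not tested.

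**Figure D1:**
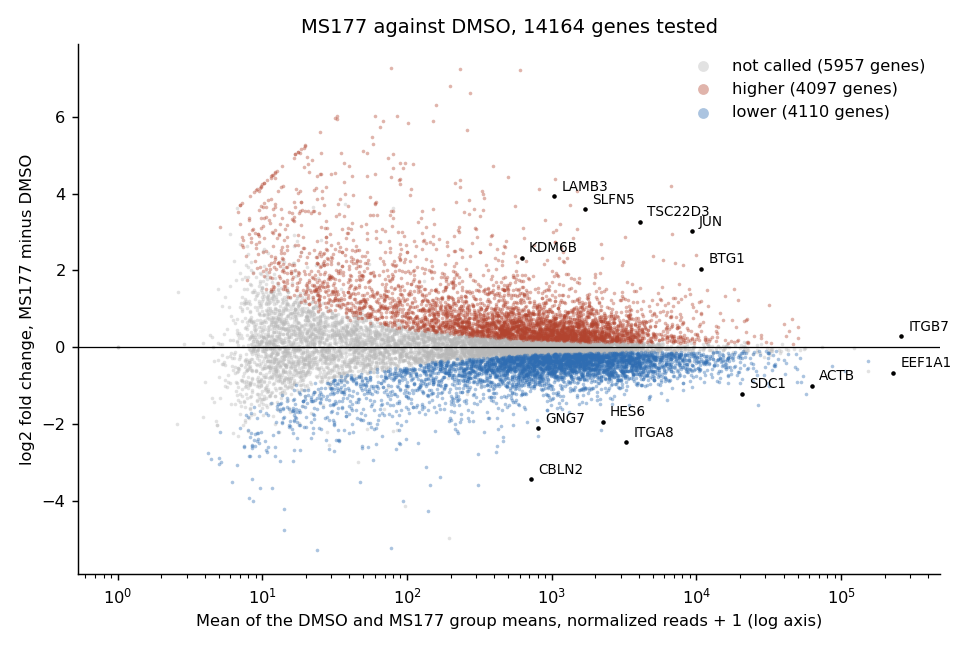
Each point is 1 of the 14164 genes tested, with the mean of the 2 group means (normalized reads + 1, log axis) across and the log2 fold change of MS177 minus DMSO upward; 4097 red points are genes called higher, 4110 blue points genes called lower and grey points genes not called. The genes with the largest rises lie at low and middle levels, while most labelled genes at the far right, such as EEF1A1 and ACTB, lie below 0 and ITGB7 lies above it.

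Rises and falls were spread unevenly over the range of expression. Level here is the mean over the 4 groups of the series. In the quartile of genes with the lowest mean level (3.01 to 75.0 normalized reads) 22.8% rose and 9.57% fell. Genes near silence in the other groups could pass the filter through their MS177 libraries. The excess of rises at low level may thus be built in to some degree, which was not tested. In the quartile with the highest level (1430.0 to 257026 normalized reads) 25.7% rose and 48.9% fell. The same uneven split appeared over transcript length. Among genes whose longest annotated transcript was at most 2352 bases, 21.0% rose and 35.2% fell, against 39.0% and 24.6% among those of at least 5406 bases. Falls thus outnumbered rises among highly expressed genes and among those with short transcripts, and rises outnumbered falls among low and long ones. The number of listed genes with 0 reads was 719 and 760 with DMSO and 479 and 464 with MS177.

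**Figure D2:**
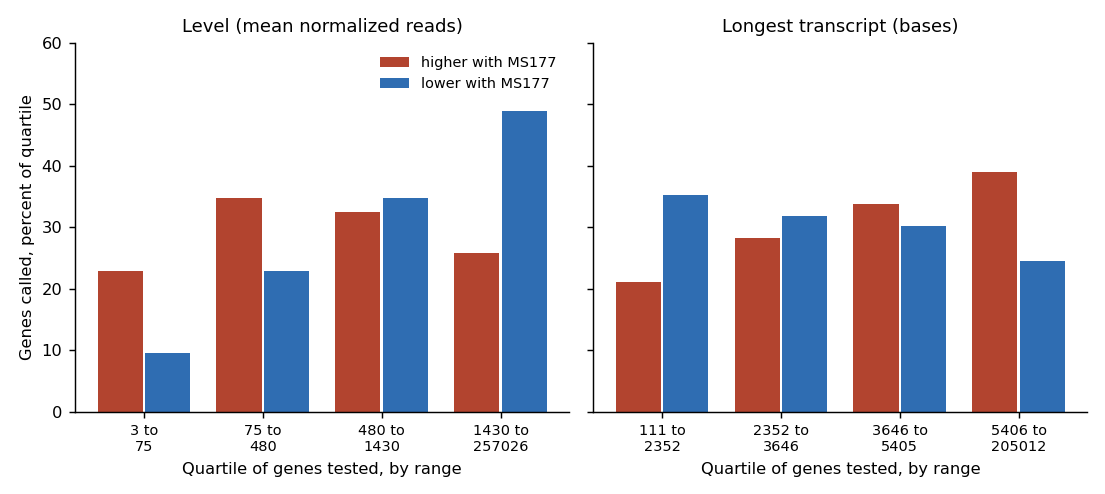
Bars give the percent of genes called higher (red) or lower (blue) with MS177 in each quartile of genes tested. Quartiles are by mean level over the 4 groups on the left and by the longest annotated transcript on the right. The range of each quartile stands under it. The share called lower climbs from 9.57% to 48.9% with level and drops from 35.2% to 24.6% with length.

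The cells carried the markers of a plasma-cell line. All 12 plasma-cell markers were measured, and their summed level was 206963 and 206688 normalized reads with DMSO and 133492 and 130772 with MS177. Of the 12, 1 rose and 8 fell, with a median log2 fold change of -0.26. Much of the fall in the sum was in IGJ, the joining chain of polymeric immunoglobulin. It had 80811 and 79845 normalized reads with DMSO and 34601 and 34216 with MS177. Syndecan-1 (SDC1), the defining surface proteoglycan of plasma cells, had 28444 and 29159.7 normalized reads with DMSO and 12569 and 12278 with MS177 (log2 fold change -1.21, SE 0.04, limma adjusted p = 9.18e-13). Both MS177 libraries lay below both DMSO libraries. XBP1, the transcription factor of the secretory program, was 31974 and 31433 normalized reads with DMSO and 34814 and 33575 with MS177 (log2 fold change 0.11, SE 0.04, limma adjusted p = 0.0183), a call that was lost without DMSO replicate 2 (log2 fold change of XBP1 0.10, limma adjusted p = 0.0963), without MS177 replicate 1 (0.08, limma adjusted p = 0.0723) and with only the 4 libraries of the comparison. Of the markers of other cell types, 7 of 13 for monocytes and granulocytes were measured, with a summed level of 315 and 390.3 normalized reads with DMSO and 1790 and 1665 with MS177. The 5 of these 7 that were tested all rose at least 2-fold, with a median log2 fold change of 2.36, and 4 of them were called without MS177 replicate 1 or 2. Markers low with DMSO could pass the filter through their MS177 libraries, which favours markers that rose. With the filter at 50 reads 2 of these markers were tested, and both rose (median 2.25). CD68, a lysosomal protein, made up most of the sum, at 282 and 356 normalized reads with DMSO and 1585 and 1471 with MS177. The defining monocyte receptor CD14, named after its values were seen, was too low to be tested, at 7.70 and 9.61 normalized reads with DMSO and 9.64 and 10.3 with MS177. The part of these markers in other results was not tested. For T and NK cells 5 of 14 markers were measured (sums of 260 and 257 with DMSO, 421 and 441 with MS177). Of the 4 tested, 1 rose and 2 fell, with a median log2 fold change of -1.10, against the direction of the sum. For stromal, epithelial and endothelial cells 11 of 14 were measured (247 and 294 with DMSO, 239 and 210 with MS177). Of the 6 tested, 2 rose and 1 fell, with a median of 0.72. Both medians changed sign with the filter at 50 reads (0.17 and -0.535). The collagen gene COL3A1 was at 0 in all 4 libraries. In bulk RNA, fewer cells of a type and less RNA per cell cannot be told apart.

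Large changes were ranked among called genes with a mean of at least 200 normalized reads in both groups. Genes of the stress, MYC, p53, NF-kB, cell-cycle and cholesterol lists were left out of that ranking. By this rule SLFN5, a member of the interferon-inducible Schlafen family, had the largest rise. It stood at 251 and 266 normalized reads with DMSO and 2835 and 3454 with MS177 (log2 fold change 3.59, SE 0.15, limma adjusted p = 2.37e-10). TSC22D3, which encodes the glucocorticoid-induced leucine zipper protein, was at 756 and 762 normalized reads with DMSO and 7559 and 7121 with MS177 (log2 fold change 3.27, SE 0.07, limma adjusted p = 1.46e-14). For both genes the MS177 libraries lay far above the DMSO libraries, with no overlap. JUN, a subunit of the AP-1 transcription factor, had 2137 and 1948 normalized reads with DMSO and 17299 and 15789.8 with MS177 (log2 fold change 3.02, SE 0.06, limma adjusted p = 6.37e-15). LAMP3, a lysosomal membrane glycoprotein of mature dendritic cells, had 236 and 214 normalized reads with DMSO and 1849.6 and 1755 with MS177. TRPM8, the cold- and menthol-gated cation channel, had 261 and 282 normalized reads with DMSO and 1845 and 1823 with MS177. These 3 genes rose 8.10-, 8.01- and 6.76-fold. KDM6B, a demethylase that removes the mark that EZH2 deposits on histone H3, was at 200.3 and 209 normalized reads with DMSO and 1081 and 993 with MS177 (log2 fold change 2.34, SE 0.12, limma adjusted p = 2.93e-10). Its lowest MS177 library was thus far above its highest DMSO library.

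The other genes among the 15 largest rises by this rule serve varied functions. PIK3IP1, a membrane protein that restrains phosphoinositide 3-kinase, had 303 and 361 normalized reads with DMSO and 2024 and 1951 with MS177, and TXNIP, treated with its family below, rose 5.31-fold. TGFA, a ligand of the epidermal growth factor receptor, had 411 and 418 normalized reads with DMSO and 1809.9 and 2121 with MS177. PCK2, the mitochondrial phosphoenolpyruvate carboxykinase, rose 6.66-fold, and ADM2, which encodes the peptide hormone intermedin, 6.38-fold. CGN (cingulin, a tight-junction scaffold), TREML2 (a receptor of the TREM family), RTN4RL2 (a Nogo receptor homologue) and SEPP1 (selenoprotein P, a selenium carrier) rose between 4.69- and 5.03-fold. The limma adjusted p of the 15 genes was at most 1.5e-07, and in none did the DMSO and MS177 libraries overlap. These genes were chosen as the largest called changes, so both statements are only a description.

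The largest fall by the same rule was in ITGA8, the alpha-8 integrin chain, which stood at 5247 and 5813 normalized reads with DMSO and 929 and 1059.6 with MS177 (log2 fold change -2.48, SE 0.07, limma adjusted p = 1.57e-13). MYB, a transcription factor of blood progenitors, had 1063 and 1065 normalized reads with DMSO and 259 and 292 with MS177 (log2 fold change -1.95, SE 0.08, limma adjusted p = 3.32e-11). HES6, a member of the Hairy/E(spl) family of transcription factors, had 3806 and 3335 normalized reads with DMSO and 1007 and 862 with MS177 (log2 fold change -1.93, SE 0.07, limma adjusted p = 1.74e-11). The 3 genes fell 5.56-, 3.86- and 3.82-fold, and their libraries did not overlap. GNG7, a G protein gamma subunit, was at 1314 and 1277 normalized reads with DMSO and 318 and 282 with MS177, a 4.32-fold fall. CYP26A1, the enzyme that degrades retinoic acid, was at 1432 and 1367 normalized reads with DMSO and 436 and 469 with MS177, a 3.09-fold fall. C17orf96, also named EPOP, encodes a protein that associates with PRC2, and it had 1010.4 and 943 normalized reads with DMSO and 325 and 316 with MS177 (log2 fold change -1.60, SE 0.08, limma adjusted p = 1.73e-10). SAMD1, a reader of unmethylated CpG islands, fell 3.01-fold, from 1638 ± 42.5 to 544 ± 36.0 normalized reads (SD, n = 2).

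The remaining large falls included membrane proteins and enzymes. TNFRSF1B, tumour necrosis factor receptor 2, was at 1802 and 1737 normalized reads with DMSO and 600.1 and 556 with MS177, and P2RX5, an ATP-gated cation channel, was at 2002 and 2036 normalized reads with DMSO and 647 and 613 with MS177. Both receptors were clearly lower in both MS177 libraries. CBR1 (carbonyl reductase), SIDT2 (a lysosomal membrane protein), GPRIN1 (a G protein-binding protein of neurites), TMEM201 (an inner nuclear membrane protein), CCDC167 and ABHD15 fell by 1.58 to 2.32 on the log2 scale. The limma adjusted p of the 15 falls was at most 1.31e-09. They too were chosen by size among called genes.

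**Figure D3:**
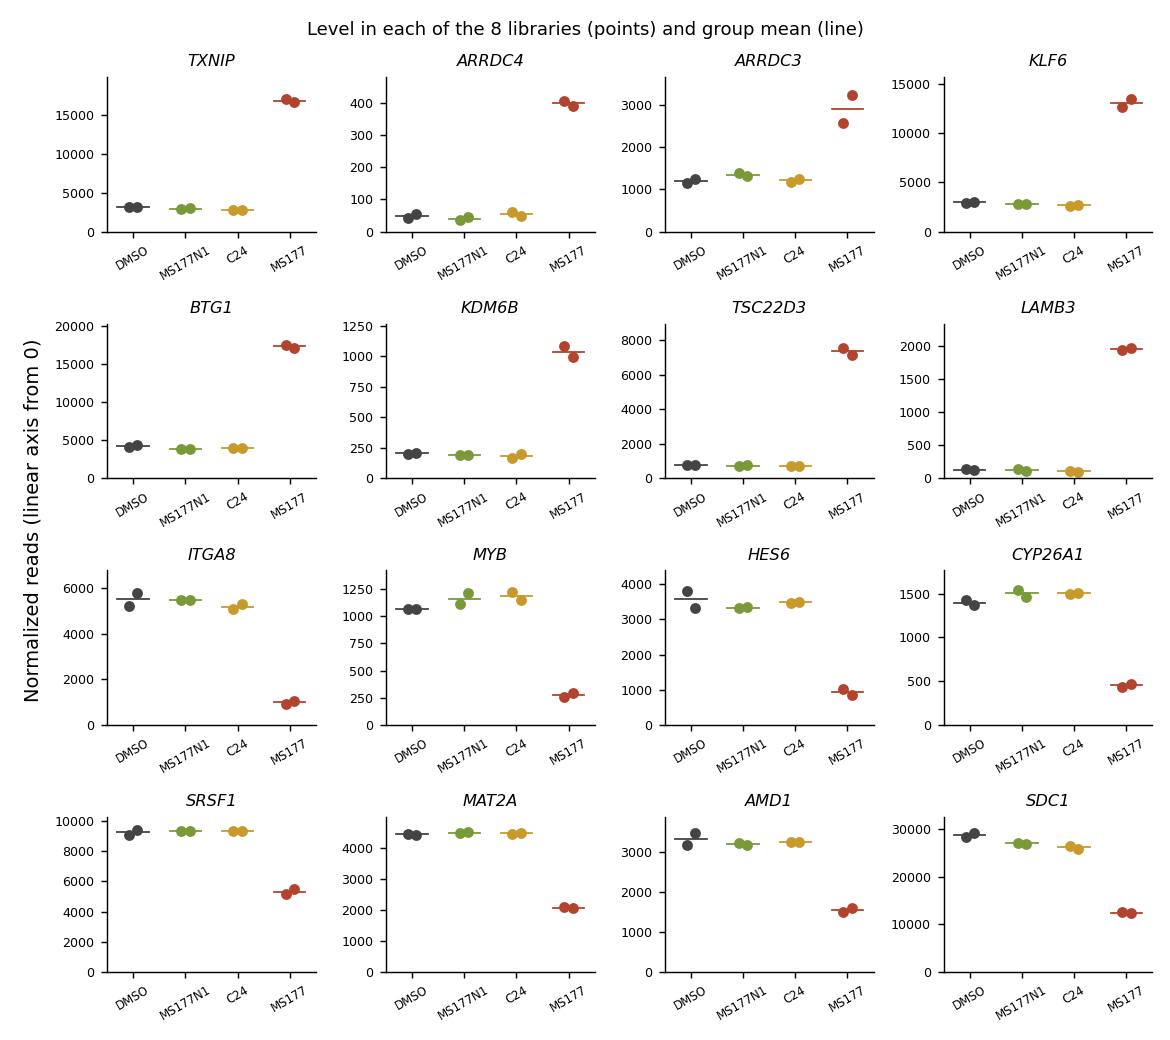
Each panel shows 1 gene, with normalized reads on a linear axis from 0; points are the 2 libraries of each group and the line is their mean. In all 16 panels both MS177 libraries stand apart from the 6 libraries of DMSO, MS177N1 and C24, above them for TXNIP to LAMB3 and below them for ITGA8 to SDC1.

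Counted as reads scaled to the library total (RPM), and without correction for transcript length, the largest losses and gains were in abundant transcripts. The 10 genes with the largest loss went from 5.44% ± 0.0829 of reads with DMSO to 3.63% ± 0.0340 with MS177 (SD, n = 2 per group), and the 10 with the largest gain from 1.90% ± 0.00837 to 2.98% ± 0.0263. Those genes were chosen by this difference, so the shares are a description. The 100 most abundant genes of each library took 20.6% and 21.0% of reads with DMSO and 18.8% and 19.2% with MS177. Among the losses, IGJ (the joining chain of polymeric immunoglobulin), ACTB (beta-actin), TXNDC5 (a disulfide isomerase of the endoplasmic reticulum) and EEF1A1 (translation elongation factor 1A) were among the largest. EEF1A1 fell from 11979.8 and 12834 to 7901 and 8748 RPM and TXNDC5 from 5634 and 5781 to 4003 and 3901. ACTB and ACTG1, the cytoplasmic actins, fell by 1.00 (SE 0.04) and 0.91 (SE 0.03) on the log2 scale, and the tubulin gene TUBA1B fell by 0.90 (SE 0.03). IGLC1, a lambda light-chain constant gene, varied widely between replicates, from 9303 and 7035 to 6454 and 4771 RPM, and was not called (log2 fold change -0.63, SE 0.21, limma adjusted p = 0.0668). It was called without MS177 replicate 1, at a log2 fold change of IGLC1 of -0.85 (limma adjusted p = 0.0463). EEF1A1, ACTB, ACTG1, TUBA1B, GAPDH, IGLC1 and IGLL5 have near-identical copies that share reads, so their levels are uncertain.

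The gains included ITGB7, the beta-7 integrin chain that pairs with alpha-4 or alpha-E, which went from 10143 and 10444 to 13235 and 13442 RPM. H1FX, a linker histone variant, went from 947 and 833 to 2187 and 1896. PBXIP1, a protein that binds PBX homeodomain factors, went from 1527 and 1512 to 2636 and 2688. H1FX rose 2.16-fold, while ITGB7 gained most in reads with a log2 fold change of 0.29 (SE 0.03). MYH9, non-muscle myosin heavy chain IIA, went from 1585 and 1689 to 2217 and 2447, and ITM2C, an integral membrane protein, from 1870.4 and 1767 to 2924 and 2683. HERPUD1, a component of endoplasmic reticulum-associated degradation, went from 405 and 425 to 1267 and 1250.2 and AARS, the alanyl-tRNA synthetase, from 384 and 408 to 1034 and 1077. FTL (ferritin light chain) and H3F3B (histone H3.3) also gained, and both have many near-identical copies and are uncertain.

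**Figure D4:**
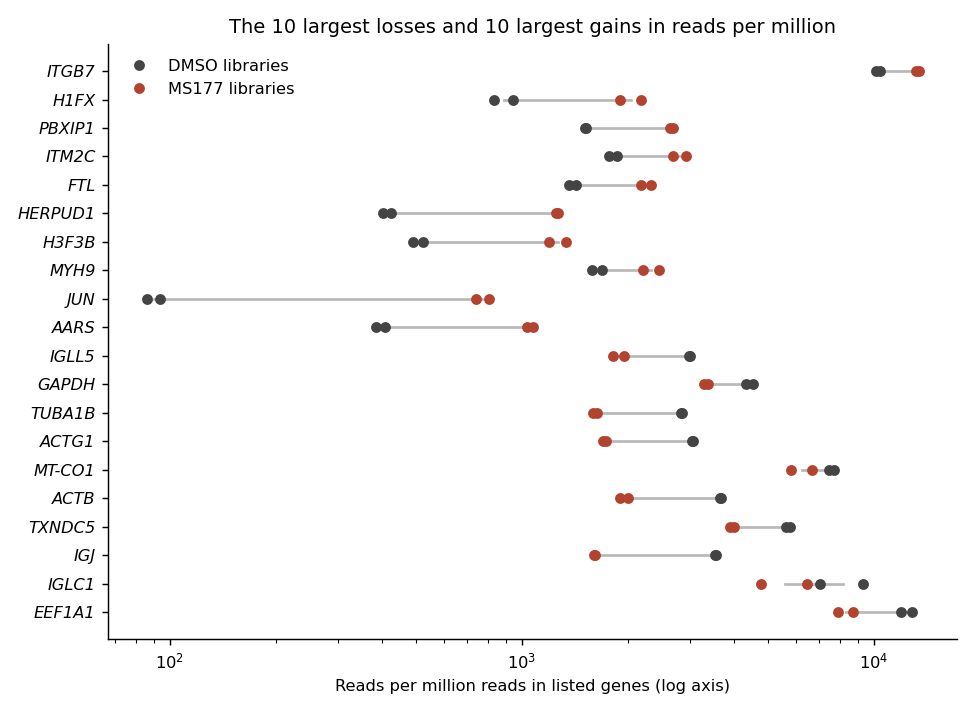
Points are RPM, reads scaled to the library's total in listed genes (log axis), in the 2 DMSO (dark) and 2 MS177 (red) libraries for the 10 genes with the largest gain, at the top, and the 10 with the largest loss; grey lines join the group means. The libraries of the 2 groups are apart for every gene shown, and IGLC1 has the widest spread within a group.

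Most functions counted here (36 lists, chosen to lie outside the stress, MYC, p53, NF-kB, cell-cycle and cholesterol genes) held genes that moved in both directions. Their medians lay above 0 in 25 lists, against a median of 0.0045 over all genes tested. The share of members that rose was largest among arrestin-domain proteins, Kruppel-like and nuclear receptor factors and the TNF superfamily. The share that fell was largest for nuclear transport, the spliceosome, folate and methionine enzymes and N-glycosylation. Lists of abundant genes are also to be read against the 48.9% that fell in the quartile with the highest level. The part of level in these shares was not tested. The counts are descriptions and no list was tested as a set.

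**Figure D5:**
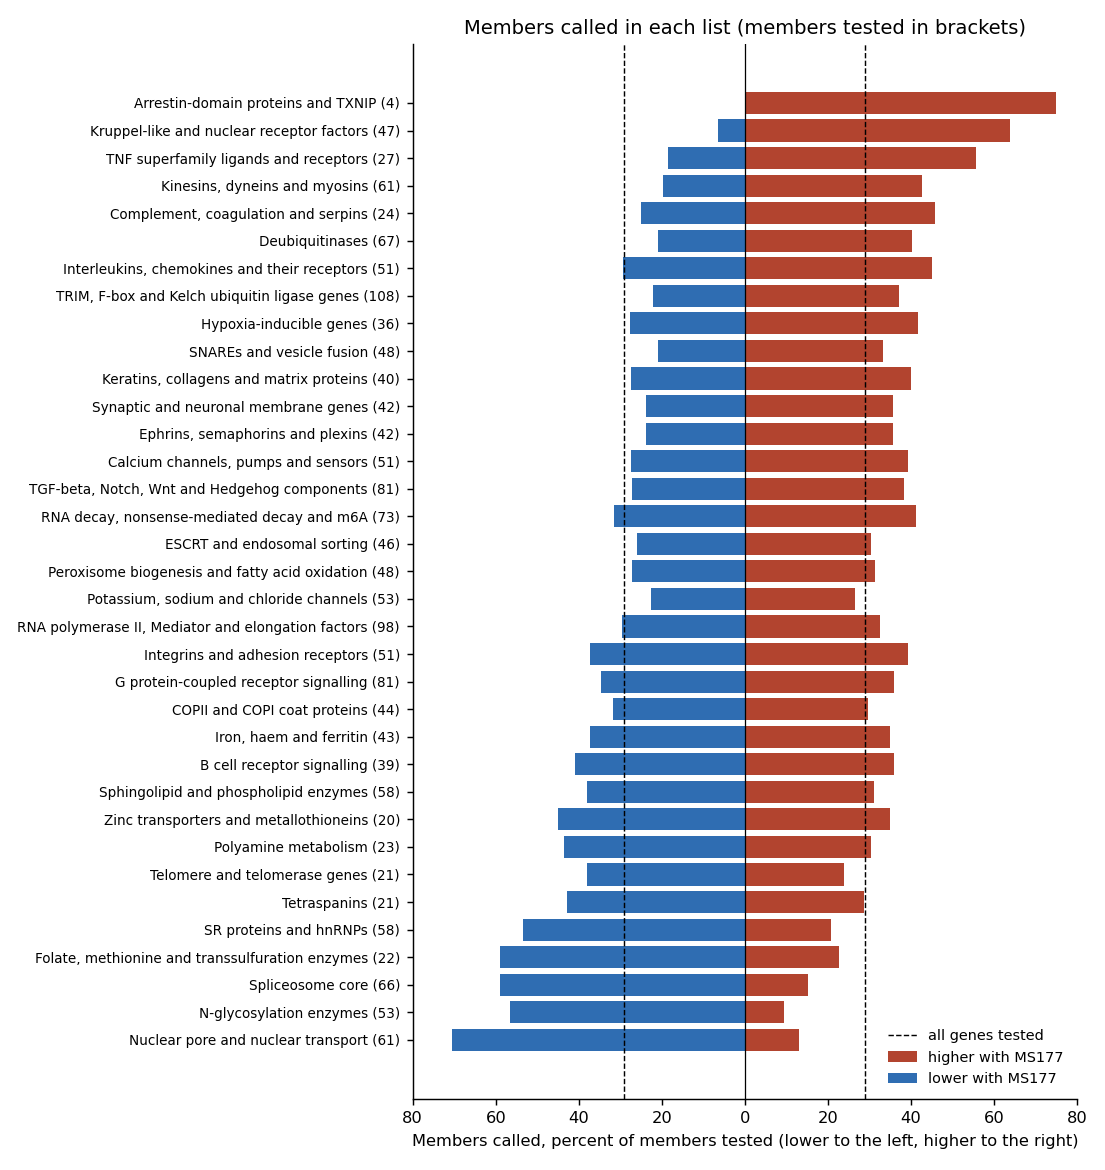
Bars give the percent of tested members of each of 35 lists that were called higher (red, to the right) or lower (blue, to the left) with MS177, with the number tested in brackets and dashed lines at the 28.9% and 29.0% of all genes tested. Bars to the left reach past the line by most for nuclear pore and transport genes (70.5%), and bars to the right for arrestin-domain proteins (75.0%, of 4 genes) and Kruppel-like and nuclear receptor factors (63.8%).

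Genes that move cargo through the nuclear pore were mostly lower. Of 61 nuclear pore and transport genes tested, 8 rose (13.1%) and 43 fell (70.5%), with a median log2 fold change of -0.29. NUP188, a scaffold nucleoporin of the inner ring, was at 3819 and 3810.0 normalized reads with DMSO and 2046 and 2158 with MS177 (log2 fold change -0.86, SE 0.05, limma adjusted p = 1.18e-09). NUP160 and NUP85, of the outer-ring Y complex, fell by 0.89 (SE 0.06) and 0.67 (SE 0.09) on the log2 scale. RANBP1, which helps Ran hydrolyse GTP, was at 6149 and 5773 normalized reads with DMSO and 3502 and 3149 with MS177. Both scaffold and soluble factors were thus among the genes that fell. The members that rose were carriers in part, with XPOT, the export receptor of transfer RNA, at 4723 and 5075 normalized reads with DMSO and 7997 and 8997 with MS177 (log2 fold change 0.79, SE 0.06, limma adjusted p = 1.45e-08). KPNA4 and KPNA5, importin alpha adaptors, rose by 0.73 (SE 0.05) and 1.08 (SE 0.20), and TPR, the basket filament protein, by 0.42 (SE 0.07).

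Splicing genes showed the same direction. Of 66 core spliceosome genes tested, 10 rose (15.2%) and 39 fell (59.1%), with a median log2 fold change of -0.26. SNRPB, a core Sm protein of the spliceosomal particles, was at 13233 and 11658 normalized reads with DMSO and 6763 and 5519 with MS177 (log2 fold change -1.02, SE 0.09, limma adjusted p = 1.93e-05). SNRPD1 and SNRPF, other Sm proteins, fell by 1.12 (SE 0.07) and 1.04 (SE 0.11), and SNRNP25, of the minor spliceosome, by 1.07 (SE 0.06). The 4 are small proteins made in every cell, and they fell 2.03- to 2.17-fold. Against them, PRPF40B, a U1-associated factor, rose by 1.07 (SE 0.17) and BUD31 and SLU7 by 0.51 and 0.47. Of 58 SR protein and hnRNP genes tested, 12 rose (20.7%) and 31 fell (53.4%), with a median log2 fold change of -0.28. SRSF1, the SR protein that promotes exon inclusion, was at 9107 and 9425 normalized reads with DMSO and 5138 and 5511 with MS177 (log2 fold change -0.80, SE 0.05, limma adjusted p = 8.12e-10). SRSF2 was at 8497 and 8352 normalized reads with DMSO and 4828 and 4504 with MS177, and HNRNPAB, an hnRNP of the A/B type, was at 11707 and 11519 normalized reads with DMSO and 6848 and 5884 with MS177. Libraries of both groups were well apart for all 3. The kinases CLK1 and CLK4, which phosphorylate SR proteins, went the other way, with CLK1 at 378 and 349 normalized reads with DMSO and 748 and 734 with MS177 (log2 fold change 1.03, SE 0.11, limma adjusted p = 9.03e-07) and CLK4 at 1.19 (SE 0.15). ESRP1, an epithelial splicing regulator, rose 3.79-fold from 113 ± 10.3 to 428 ± 10.4 normalized reads.

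Genes of transcription and RNA decay split more evenly. Of 98 genes of RNA polymerase II, Mediator and elongation factors tested, 32 rose (32.7%) and 29 fell (29.6%), with a median log2 fold change of 0.0069. POLR2B, a catalytic-core subunit of RNA polymerase II, fell by 0.71 (SE 0.05), whereas AFF4, the scaffold of the super elongation complex, was at 1271 and 1449 normalized reads with DMSO and 2424 and 2949.8 with MS177 (log2 fold change 0.98, SE 0.09, limma adjusted p = 2.51e-07). CCNT2, a cyclin of the elongation kinase P-TEFb, and HEXIM2, an inhibitor of that kinase, rose by 0.69 (SE 0.12) and 0.83 (SE 0.14). Of 73 genes of RNA decay and the m6A mark tested, 30 rose (41.1%) and 23 fell (31.5%), with a median log2 fold change of 0.078. The median was 0.13 without MS177 replicate 1. BTG1, an antiproliferative protein that recruits deadenylases, was at 4093 and 4308 normalized reads with DMSO and 17585 and 17193 with MS177 (log2 fold change 2.05, SE 0.05, limma adjusted p = 2.47e-14). It was the decay gene with the largest rise among those named by level, a 4.14-fold change with no overlap. ZFP36L1, which brings AU-rich transcripts to decay, was at 354 and 361 normalized reads with DMSO and 933 and 942 with MS177. The exosome subunits EXOSC3, EXOSC4 and EXOSC5, parts of the 3′-to-5′ RNA-degrading complex, fell by 0.83, 0.69 and 0.82. Of 21 telomere and telomerase genes tested, 5 rose (23.8%) and 8 fell (38.1%), with a median log2 fold change of -0.089. With only the 4 libraries of the comparison, 3 of these rose. TERT, the catalytic subunit of telomerase, was low with DMSO and was at 93.6 and 117 normalized reads with DMSO and 48.2 and 29.0 with MS177 (log2 fold change -1.46, SE 0.25, limma adjusted p = 9.51e-05), and NHP2 and DKC1, proteins of the telomerase and H/ACA particles, fell by 0.86 (SE 0.06) and 0.64 (SE 0.05).

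Plasma cells glycosylate and secrete large amounts of protein, and the enzymes of N-glycosylation were mostly lower. Of 53 genes of N-glycosylation tested, 5 rose (9.43%) and 30 fell (56.6%), with a median log2 fold change of -0.26. Beside this, the summed level of plasma-cell markers fell as given above, much of it in IGJ, and its part in these counts was not tested. ALG3, a mannosyltransferase that extends the lipid-linked glycan, was at 3918 and 3469 normalized reads with DMSO and 2172 and 1918 with MS177 (log2 fold change -0.85, SE 0.07, limma adjusted p = 7.99e-08). MGAT4B, which adds a branch to glycans in the Golgi, was at 4322 and 4351 normalized reads with DMSO and 2585 and 2409 with MS177, and its paralog MGAT4A fell by 1.35 (SE 0.19). UAP1, which makes the sugar donor UDP-N-acetylglucosamine, was at 2438 and 2504 normalized reads with DMSO and 1436 and 1513 with MS177. Early and late steps of the pathway were thus both among the falls. Of the 5 that rose, B4GALT1, a Golgi galactosyltransferase, was at 2713 and 2875 normalized reads with DMSO and 3551 and 3799 with MS177 (log2 fold change 0.40, SE 0.06, limma adjusted p = 1.72e-05) and the others changed by less.

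Coat, fusion and sorting genes moved in both directions. Of 44 genes of COPI and COPII transport tested, 13 rose (29.5%) and 14 fell (31.8%), with a median log2 fold change of 0.0034. Under total-read scaling 17 of these rose and 9 fell. COPA, the alpha subunit of the COPI coat, was at 5782 and 5917 normalized reads with DMSO and 9287 and 9779 with MS177 (log2 fold change 0.70, SE 0.05, limma adjusted p = 3.8e-09), whereas ERGIC1, a cargo receptor between the endoplasmic reticulum and the Golgi, was at 13441 and 13419 normalized reads with DMSO and 7835 and 7474 with MS177 (log2 fold change -0.81, SE 0.04, limma adjusted p = 2.68e-10). COPG1 and SEC24D, a COPI and a COPII subunit, rose by 0.52 (SE 0.05) and 0.55 (SE 0.06), while TMED3, a p24 cargo protein, fell by 0.60 (SE 0.07). Of 48 genes of vesicle fusion tested, 16 rose (33.3%) and 10 fell (20.8%), with a median log2 fold change of 0.011. The syntaxins STX12, STX7, STX5 and STX4, membrane-anchored fusion proteins, rose between 1.84- and 2.59-fold, with STX7 of late endosomes at 987 and 1034 normalized reads with DMSO and 1946 and 2068 with MS177. Of 46 genes of ESCRT and endosomal sorting tested, 14 rose (30.4%) and 12 fell (26.1%), with a median log2 fold change of 0.038. RAB5A, the GTPase of early endosomes, was at 824 and 857 normalized reads with DMSO and 1529 and 1719.9 with MS177, and VPS37A, an ESCRT-I subunit, was at 619 and 648 normalized reads with DMSO and 1392 and 1544 with MS177. They rose 1.93- and 2.32-fold. Of 21 tetraspanin genes tested, 6 rose (28.6%) and 9 fell (42.9%), with a median log2 fold change of -0.33. CD63 and CD82, tetraspanins of endosomes and the cell surface, rose by 0.86 (SE 0.08) and 0.86 (SE 0.06), and CD37, a B-cell tetraspanin, fell by 0.72 (SE 0.12).

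Enzymes of methyl-group and polyamine metabolism showed opposite moves within a pathway. Of 22 genes of folate, methionine and transsulfuration metabolism tested, 5 rose (22.7%) and 13 fell (59.1%), with a median log2 fold change of -0.27. MAT2A, which makes the methyl donor S-adenosylmethionine used by methyltransferases including EZH2, was at 4463 and 4438 normalized reads with DMSO and 2075 and 2061 with MS177 (log2 fold change -1.11, SE 0.05, limma adjusted p = 2.98e-11). SLC19A1, the reduced folate carrier, was at 5246 and 4892 normalized reads with DMSO and 2774 and 2536 with MS177, a 1.91-fold fall. CBS, the first enzyme of transsulfuration, was at 89.2 and 59.6 normalized reads with DMSO and 482 and 495 with MS177 (log2 fold change 2.73, SE 0.20, limma adjusted p = 1.36e-08), and CTH, the enzyme of the next step, rose 2.66-fold. The folate carrier and the methionine-activating enzyme were thus lower, and the 2 enzymes that turn homocysteine into cysteine were higher. Of 23 genes of polyamine metabolism tested, 7 rose (30.4%) and 10 fell (43.5%), with a median log2 fold change of -0.099. Without MS177 replicate 1, 4 of these rose and 10 fell (median -0.22). AMD1, which supplies the aminopropyl donor for polyamine synthesis, was at 3184 and 3476 normalized reads with DMSO and 1494 and 1600.2 with MS177 (log2 fold change -1.11, SE 0.06, limma adjusted p = 3.1e-10), and SRM, spermidine synthase, was at 7421 and 6899.8 normalized reads with DMSO and 4019.6 and 3414 with MS177. SMOX and PAOX, the oxidases that break polyamines down, were at 264 and 239 normalized reads with DMSO and 888 and 856 with MS177 for SMOX and at 190.4 and 209 normalized reads with DMSO and 544 and 503 with MS177 for PAOX. Synthesis genes AMD1 and SRM fell 2.15- and 1.93-fold, and oxidase genes rose 3.46- and 2.63-fold.

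Lipid genes gave no common direction. Of 58 genes of sphingolipid and phospholipid metabolism tested, 18 rose (31.0%) and 22 fell (37.9%), with a median log2 fold change of 0.036. SGPL1, the lyase that ends sphingolipid breakdown, was at 728 and 653 normalized reads with DMSO and 2015 and 2038 with MS177 (log2 fold change 1.55, SE 0.08, limma adjusted p = 1.39e-10), and ORMDL3, an inhibitor of sphingolipid synthesis, was at 3813 and 3827 normalized reads with DMSO and 6834 and 6641 with MS177. DGAT2, which makes triglyceride, was at 1314 and 1324 normalized reads with DMSO and 571 and 546 with MS177, a 2.36-fold fall. Of 48 genes of peroxisomes and fatty acid oxidation tested, 15 rose (31.2%) and 13 fell (27.1%), with a median log2 fold change of 0.076. PEX5, the receptor that imports peroxisomal enzymes, was at 1171 and 1197 normalized reads with DMSO and 545 and 575 with MS177 (log2 fold change -1.08, SE 0.07, limma adjusted p = 4.3e-09), and PPARGC1A, the coactivator PGC-1 alpha, was at 322 and 346 normalized reads with DMSO and 575 and 628 with MS177 (log2 fold change 0.85, SE 0.10, limma adjusted p = 3.08e-06). Of 36 hypoxia-inducible genes tested, 15 rose (41.7%) and 10 fell (27.8%), with a median log2 fold change of 0.13. With the filter at 50 reads this median was 0.023. It was 0.066 with DMSO replicate 1 left out, 0.20 with DMSO replicate 2 left out and 0.29 with MS177 replicate 2 left out. Leaving out MS177 replicate 1 gave 12 that rose and 12 that fell. BHLHE40 and BHLHE41, transcriptional repressors also tied to the circadian clock, were at 546 and 492 normalized reads with DMSO and 1320.2 and 1297 with MS177 for BHLHE40 and at 1444 and 1379 normalized reads with DMSO and 3025 and 2930.1 with MS177 for BHLHE41. BHLHE40 was also called higher with C24, at 763 and 784 normalized reads (log2 fold change 0.58, SE 0.08, limma adjusted p = 0.00337). VEGFA, the angiogenic growth factor, rose 2.09-fold from 1218 ± 86.5 to 2544 ± 229 normalized reads, whereas ANKRD37 and ERO1L, other genes of the hypoxia response, fell 2.80- and 1.78-fold. The hypoxia list thus held risen and fallen members side by side.

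Metal handling differed by transporter. Of 43 genes of iron and haem tested, 15 rose (34.9%) and 16 fell (37.2%), with a median log2 fold change of -0.019. STEAP1, a metalloreductase family member, was at 41.8 and 31.7 normalized reads with DMSO and 287 and 213 with MS177 (log2 fold change 2.73, SE 0.27, limma adjusted p = 4.39e-07), while STEAP3, the ferrireductase of endosomes, was at 746 and 715 normalized reads with DMSO and 315 and 306 with MS177 (log2 fold change -1.23, SE 0.08, limma adjusted p = 5.74e-09). BLVRB, biliverdin reductase B, rose 2.05-fold. Of 20 zinc transporter and metallothionein genes tested, 7 rose (35.0%) and 9 fell (45.0%), with a median log2 fold change of -0.078. The median was -0.19 without DMSO replicate 1. SLC39A3, a zinc importer of the ZIP family, was at 2673 and 2404 normalized reads with DMSO and 1017 and 847 with MS177 (log2 fold change -1.45, SE 0.09, limma adjusted p = 1.39e-08), and SLC30A1, the zinc exporter of the plasma membrane, was at 4263 and 4461 normalized reads with DMSO and 7147 and 8588 with MS177 (log2 fold change 0.85, SE 0.07, limma adjusted p = 7.49e-08).

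Ion channel and calcium-handling genes moved in both directions. Of 51 genes of calcium channels, pumps and sensors tested, 20 rose (39.2%) and 14 fell (27.5%), with a median log2 fold change of 0.15. ATP2B4, a plasma membrane calcium pump, was at 813 and 926 normalized reads with DMSO and 2969 and 3239.7 with MS177 (log2 fold change 1.84, SE 0.08, limma adjusted p = 2.01e-11). ORAI3 and ORAI2, pore subunits of store-operated calcium entry, moved in opposite directions, with ORAI3 at 277 and 243 normalized reads with DMSO and 744 and 741 with MS177 and ORAI2 at 10633 and 10965 normalized reads with DMSO and 7267 and 7366 with MS177. Of 53 potassium, sodium and chloride channel genes tested, 14 rose (26.4%) and 12 fell (22.6%), with a median log2 fold change of -0.048. CLIC4, an intracellular chloride channel protein, was at 4420.1 and 4669 normalized reads with DMSO and 9407 and 11237 with MS177 (log2 fold change 1.18, SE 0.07, limma adjusted p = 4.34e-09). KCNA3, the voltage-gated potassium channel of lymphocytes, was at 909 and 938 normalized reads with DMSO and 594 and 539 with MS177 (log2 fold change -0.71, SE 0.08, limma adjusted p = 1.37e-06). NALCN, a sodium leak channel, fell 3.16-fold.

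Kruppel-like factors and nuclear receptors, both families of DNA-binding transcription factors, were mostly higher. Of 47 genes tested, 30 rose (63.8%) and 3 fell (6.38%), with a median log2 fold change of 0.52. KLF6 was at 2939.8 and 2988 normalized reads with DMSO and 12676 and 13551 with MS177 (log2 fold change 2.14, SE 0.05, limma adjusted p = 3.14e-14). KLF5 was at 119 and 138 normalized reads with DMSO and 532 and 618 with MS177, a 4.47-fold rise. NR4A1, an orphan receptor induced by many stimuli, was at 17.6 and 11.5 normalized reads with DMSO and 141 and 108 with MS177. It was low with DMSO, so its fold rests on few reads. The 3 members that fell were KLF16 (-1.01, SE 0.08), ESRRA, an orphan oestrogen-related receptor (-0.37, SE 0.06), and NR2F6 (-0.35, SE 0.11), the last of which lost its call without DMSO replicate 2 (log2 fold change of NR2F6 -0.32, limma adjusted p = 0.0673), without MS177 replicate 1 (-0.33, limma adjusted p = 0.0505) and under total-read scaling (-0.27).

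TXNIP and the alpha-arrestins ARRDC3 and ARRDC4 share an arrestin fold. TXNIP binds thioredoxin and limits glucose uptake, and the others act as adaptors that bring membrane proteins to ubiquitin ligases. Of 4 family members tested, 3 rose and 0 fell. With no filter on low reads 5 members entered, of which 3 rose and 1 fell (median log2 fold change 1.27). TXNIP was at 3207 and 3131 normalized reads with DMSO and 16986 and 16643 with MS177 (log2 fold change 2.41, SE 0.05, limma adjusted p = 6.37e-15). ARRDC4 was at 40.7 and 54.8 normalized reads with DMSO and 406 and 391 with MS177 (log2 fold change 3.05, SE 0.23, limma adjusted p = 1.4e-08). ARRDC3 was at 1153 and 1248 normalized reads with DMSO and 2578 and 3238 with MS177 (log2 fold change 1.27, SE 0.09, limma adjusted p = 2.81e-08). All 3 had their MS177 libraries above the other 6 libraries, and ARRDC3 had the widest spread between its MS177 libraries. The other tested member, ARRDC1, was at 648 and 588 normalized reads with DMSO and 629 and 573 with MS177 and was not called (log2 fold change -0.04, SE 0.09, limma adjusted p = 0.725).

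The promoters of these 3 genes are shown because TXNIP and ARRDC4 are known targets of the glucose-sensing factors MondoA and ChREBP, which bind paired CACGNG boxes (carbohydrate response elements) together with MLX. The 250 bases before the first listed start are given 5′ to 3′ on the gene's own strand, from RefSeq on GRCh38.p14, with CACGNG on either strand in capitals. TXNIP lies at chr1:145996580-145996829 (minus strand), ARRDC4 at chr15:97960453-97960702 (plus strand) and ARRDC3 at chr5:91383318-91383567 (minus strand).
TXNIP: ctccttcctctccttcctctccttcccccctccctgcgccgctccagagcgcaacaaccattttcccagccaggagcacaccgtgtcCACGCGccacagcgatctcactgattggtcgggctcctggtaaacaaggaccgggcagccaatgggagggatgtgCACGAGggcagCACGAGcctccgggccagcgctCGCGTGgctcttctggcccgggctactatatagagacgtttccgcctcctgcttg
ARRDC4: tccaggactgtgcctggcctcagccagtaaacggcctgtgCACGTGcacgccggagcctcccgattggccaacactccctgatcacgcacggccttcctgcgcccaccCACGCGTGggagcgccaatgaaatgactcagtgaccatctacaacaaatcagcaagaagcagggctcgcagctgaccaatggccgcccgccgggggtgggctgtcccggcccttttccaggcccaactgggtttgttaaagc
ARRDC3: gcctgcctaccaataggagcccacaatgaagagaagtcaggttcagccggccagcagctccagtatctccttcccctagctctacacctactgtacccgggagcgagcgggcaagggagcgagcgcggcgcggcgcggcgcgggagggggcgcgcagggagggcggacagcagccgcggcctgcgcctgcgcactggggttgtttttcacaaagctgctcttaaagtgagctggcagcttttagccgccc
The TXNIP window held 4 matches of CACGNG, of which 2 lie in tandem as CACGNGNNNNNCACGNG starting 88 bases before the start site. That paired form, searched on both strands, was in 16 of 27305 windows of the same length (0.0586%). It was in 9 of 9763 windows of genes tested (0.0922%) and in 2 of 914 of genes that rose at least 2-fold (0.219%). ARRDC4 held 3 matches of CACGNG, 2 of them overlapping, and 0 of the paired form. ARRDC3 held 0 of either. A single CACGNG was in 26.5% of all windows, in 37.1% of those of genes tested and in 30.9% of those of genes that rose at least 2-fold. These shares were not tested against each other, and a match is a description of these letters, not a site.

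Among genes of protein ubiquitination more rose than fell. Of 108 TRIM, F-box and Kelch genes tested, 40 rose (37.0%) and 24 fell (22.2%), with a median log2 fold change of 0.11. KLHL24, a Kelch adaptor of cullin-3 ligases, was at 635 and 642 normalized reads with DMSO and 1999.6 and 2399 with MS177 (log2 fold change 1.78, SE 0.09, limma adjusted p = 1.15e-10). FBXO32 (atrogin-1), an F-box protein known from muscle wasting, was at 252 and 248 normalized reads with DMSO and 732 and 672 with MS177 (log2 fold change 1.48, SE 0.11, limma adjusted p = 1.23e-08). TRIM65 and FBXL14 fell 2.32- and 2.32-fold, from 898 ± 4.93 to 387 ± 39.8 normalized reads for TRIM65. Of 67 deubiquitinase genes tested, 27 rose (40.3%) and 14 fell (20.9%), with a median log2 fold change of 0.14. The median was 0.22 without MS177 replicate 1. TNFAIP3 (A20), a ubiquitin-editing enzyme that restrains NF-kB, was at 4623 and 4635 normalized reads with DMSO and 10910.0 and 11241 with MS177 (log2 fold change 1.26, SE 0.04, limma adjusted p = 4.55e-12). USP11 was at 459 and 491 normalized reads with DMSO and 1431 and 1459.9 with MS177, and USP54 and USP40 rose 3.60- and 2.96-fold. STAMBPL1, a K63-specific deubiquitinase, fell by 1.12 (SE 0.19).

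Signalling genes of the B lineage were split. Of 39 genes of B cell receptor signalling tested, 14 rose (35.9%) and 16 fell (41.0%), with a median log2 fold change of 0.00013. BLNK, the linker downstream of the receptor, was at 599 and 519 normalized reads with DMSO and 1307 and 1102 with MS177 (log2 fold change 1.10, SE 0.11, limma adjusted p = 2.31e-07), and DAPP1, a phosphoinositide-binding adaptor, was at 1031 and 1079 normalized reads with DMSO and 2258 and 2434 with MS177. PIK3AP1 (BCAP), the adaptor that couples the receptor complex to phosphoinositide 3-kinase, was at 277 and 335 normalized reads with DMSO and 28.9 and 28.1 with MS177 (log2 fold change -3.37, SE 0.15, limma adjusted p = 5.97e-11). CR2, the complement receptor CD21, was at 347 and 391 normalized reads with DMSO and 101 and 90.7 with MS177, a 3.85-fold fall. Adaptors of the same pathway thus moved in opposite directions, BLNK 2.16-fold up and PIK3AP1 10.7-fold down.

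The TNF superfamily was mostly higher, with BCMA among the exceptions. Of 27 ligand and receptor genes tested, 15 rose (55.6%) and 5 fell (18.5%), with a median log2 fold change of 0.80. The median was 0.47 with the filter at 50 reads and 0.34 with no filter. LTB and LTA, the lymphotoxin subunits, were at 51.7 and 34.6 normalized reads with DMSO and 674 and 602 with MS177 for LTB and at 39.6 and 25.0 normalized reads with DMSO and 148 and 112 with MS177 for LTA. TNFRSF12A, the receptor of TWEAK, was at 18.7 and 11.5 normalized reads with DMSO and 148 and 131 with MS177 (log2 fold change 3.16, SE 0.34, limma adjusted p = 1.01e-06). TNFRSF17, the B-cell maturation antigen BCMA that myeloma therapies target, was at 4075 and 4218 normalized reads with DMSO and 2070.3 and 1951 with MS177 (log2 fold change -1.04, SE 0.05, limma adjusted p = 1.35e-10). TNFRSF1B, described above, and TNFRSF1A, the broadly expressed TNF receptor (-0.35, SE 0.06), fell as well. Of 51 genes of interleukins, chemokines and their receptors tested, 23 rose (45.1%) and 15 fell (29.4%), with a median log2 fold change of 0.26. This median was 0.12 without MS177 replicate 1, 0.42 without DMSO replicate 1 and 0.40 without MS177 replicate 2. Under total-read scaling, and with only the 4 libraries of the comparison, 23 of these genes rose and 11 fell. IL17RC, a subunit of the interleukin-17 receptor, was at 83.6 and 74.0 normalized reads with DMSO and 1079 and 979 with MS177 (log2 fold change 3.69, SE 0.16, limma adjusted p = 3.24e-11). IL15RA, the alpha chain that presents interleukin-15, fell by 0.85 (SE 0.13), and IL24 fell by 0.86 (SE 0.15). Of 24 genes of complement, coagulation and serpins tested, 11 rose (45.8%) and 6 fell (25.0%), with a median log2 fold change of 0.63. With the filter at 50 reads, 8 of 17 rose and 6 fell (median 0.32). SERPINI1 (neuroserpin) rose 3.25-fold from 192 ± 20.9 to 625 ± 31.8 normalized reads, and SERPINE2, an inhibitor of thrombin, was at 1008 and 958 normalized reads with DMSO and 508 and 585 with MS177 (log2 fold change -0.85, SE 0.09, limma adjusted p = 1.25e-06).

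Genes of G protein-coupled receptors were balanced in number, whereas more morphogen-pathway genes rose than fell. Of 81 genes of G protein-coupled receptor signalling tested, 29 rose (35.8%) and 28 fell (34.6%), with a median log2 fold change of 0.025. P2RY6, a receptor for UDP, was at 45.1 and 8.65 normalized reads with DMSO and 497 and 369 with MS177 (log2 fold change 4.35, SE 0.68, limma adjusted p = 0.00131), with DMSO libraries that differed widely. RGS16, which speeds the turn-off of G proteins, was at 309 and 299 normalized reads with DMSO and 1084 and 1047 with MS177 (log2 fold change 1.81, SE 0.11, limma adjusted p = 1.55e-09). CELSR2, an adhesion receptor of the cadherin group, and GNAZ, a G protein alpha subunit, fell 6.37- and 3.66-fold. Of 81 genes of the TGF-beta, Notch, Wnt and Hedgehog pathways tested, 31 rose (38.3%) and 22 fell (27.2%), with a median log2 fold change of 0.20. Under total-read scaling 38 of these rose and 21 fell. DKK1, a secreted Wnt inhibitor that myeloma cells are known to release in bone disease, was at 36.3 and 19.2 normalized reads with DMSO and 252 and 228 with MS177 (log2 fold change 3.13, SE 0.38, limma adjusted p = 3.44e-06). INHBE, an inhibin beta chain, was at 14.3 and 2.88 normalized reads with DMSO and 205 and 213 with MS177, and BMPR2, a receptor for bone morphogenetic proteins, was at 173 and 159.6 normalized reads with DMSO and 581 and 623 with MS177. All 3 stood higher in both MS177 libraries. HES1, the classic Notch target, was at 358 and 289 normalized reads with DMSO and 133 and 117 with MS177 (log2 fold change -1.36, SE 0.14, limma adjusted p = 4.24e-07), and TCF7, a Wnt-pathway transcription factor, fell from 55.4 ± 0.516 to 9.50 ± 0.206 normalized reads.

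Adhesion receptors changed in both directions, integrin alpha chains in particular. Of 51 integrin and adhesion receptor genes tested, 20 rose (39.2%) and 19 fell (37.3%), with a median log2 fold change of 0.11. ITGA6, the alpha-6 chain of laminin receptors, was at 766 and 759 normalized reads with DMSO and 146 and 158 with MS177 (log2 fold change -2.32, SE 0.09, limma adjusted p = 9.38e-12), and ITGA8 fell as given above. ICAM1, the ligand of leukocyte integrins, was at 379.7 and 348 normalized reads with DMSO and 2041 and 2017 with MS177 (log2 fold change 2.48, SE 0.09, limma adjusted p = 8.56e-12). ITGA5, the alpha-5 chain of the fibronectin receptor, was at 0 and 4.81 normalized reads with DMSO and 119 and 134 with MS177. DMSO libraries held at most a few reads of ITGA5, so no fold is given for it. OCLN (occludin) fell 3.96-fold, and PCDH9, a protocadherin, 4.49-fold. Of 42 ephrin, semaphorin and plexin genes tested, 15 rose (35.7%) and 10 fell (23.8%), with a median log2 fold change of 0.16. With the filter at 50 reads, 9 of 25 rose and 9 fell, with a median of -0.021. The median was 0.10 without DMSO replicate 1 and 0.043 without MS177 replicate 1. NRP2, a semaphorin coreceptor, was at 9.91 and 8.65 normalized reads with DMSO and 102 and 85.1 with MS177, and SEMA3G, a secreted semaphorin, was at 114 and 158 normalized reads with DMSO and 45.0 and 33.7 with MS177.

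Among motor proteins of the cytoskeleton more rose than fell, while the actin and tubulin genes named above were lower. Of 61 motor protein genes tested, 26 rose (42.6%) and 12 fell (19.7%), with a median log2 fold change of 0.19. Without DMSO replicate 2, 7 of these fell. KLC4, a kinesin light chain, was at 248 and 224 normalized reads with DMSO and 894 and 779 with MS177 (log2 fold change 1.82, SE 0.15, limma adjusted p = 3.97e-08), and KLC2, another light chain, fell by 0.57 (SE 0.09). DYNC2H1, the dynein heavy chain of cilia, was at 39.6 and 49.0 normalized reads with DMSO and 192 and 254 with MS177, and MYH10, non-muscle myosin IIB, fell by 0.72 (SE 0.07) while MYH9, given above by reads, rose by 0.42 (SE 0.04).

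Genes better known from neurons and epithelia also changed. Of 42 synaptic and neuronal membrane genes tested, 15 rose (35.7%) and 10 fell (23.8%), with a median log2 fold change of 0.27. The median was 0.17 without DMSO replicate 1 and 0.46 without MS177 replicate 1. CBLN2, a secreted synapse organiser, was at 1232 and 1385 normalized reads with DMSO and 118 and 123 with MS177 (log2 fold change -3.43, SE 0.08, limma adjusted p = 3.49e-14). SYT11, a synaptotagmin, was at 156 and 115 normalized reads with DMSO and 658 and 694 with MS177 (log2 fold change 2.32, SE 0.15, limma adjusted p = 3.8e-09). PCLO, a scaffold of the presynaptic zone, was at 12.1 and 20.2 normalized reads with DMSO and 91.1 and 135 with MS177. CBLN2 fell 10.8-fold, while the other two rose 4.98- and 6.99-fold. Of 40 keratin, collagen and matrix genes tested, 16 rose (40.0%) and 11 fell (27.5%), with a median log2 fold change of 0.0047. With the filter at 50 reads, 7 of 23 rose and 12 fell (median -0.20). The median was 0.20 without DMSO replicate 1, -0.14 without DMSO replicate 2 and 0.17 without MS177 replicate 2, so its sign depended on the library left out. LAMB3, the beta-3 chain of epithelial laminin, was at 135 and 119 normalized reads with DMSO and 1941 and 1967 with MS177 (log2 fold change 3.93, SE 0.14, limma adjusted p = 5.17e-12). HSPG2 (perlecan), a proteoglycan of basement membranes, was at 375 and 365 normalized reads with DMSO and 78.2 and 78.6 with MS177 (log2 fold change -2.23, SE 0.12, limma adjusted p = 3.55e-10). Both are parts of basement membranes, and they moved in opposite directions without overlap between groups.

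The same DMSO libraries served as controls for the other compounds, so those comparisons are not independent of this one. With MS177N1, 5 of 14164 genes were called (0.0353%), and with C24, 13 (0.0918%). For TXNIP the MS177N1 libraries held 2883 and 2998 normalized reads and the C24 libraries 2738 and 2704, and for KLF6 2855 and 2798 normalized reads and the C24 libraries 2646 and 2675. For ITGA8 they held 5509 and 5499 normalized reads and the C24 libraries 5091 and 5309, and for MAT2A 4493 and 4510.0 normalized reads and the C24 libraries 4470.1 and 4476. In all 4 genes these levels lay near those with DMSO and far from those with MS177. BHLHE40, given above, was among the 13 genes called with C24.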

How the data were processed

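The deposited table of MM1.S RNA-seq holds log2 values of 16295 genes for 8 libraries, which the authors had normalized, per the file headers. The library kit was NEBNext Ultra II, used on total RNA, per the labels' protocols. Of tools, the submitters' processing notes list DESeq2 1.38.2, Salmon 0.1.19 and STAR 2.4.2 without their roles, and hg19 as the build. From the values, the scale is a variance-stabilizing transformation, on which differences understate the folds of low genes. It was inverted, and all 130360 of 130360 values came out as whole reads within 0.01. After division by the recovered size factors and addition of 1, log2 values of all 8 libraries entered 1 limma 3.58.1 fit (R 4.3.3; robust, with a mean trend) with Benjamini-Hochberg adjustment. The deposited values being log2 values, a planned count test was replaced by this fit. The recovered reads would have allowed a count test, which was not run. A gene was tested if 2 or more libraries held the equivalent of 10 reads in a library of median size, and all libraries together 15, which left out 2131.

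In simulations of this comparison on 16295 genes, the share of changed genes found was 47.3% at 1.25-fold, 69.3% at 1.5-fold, 78.7% at 2-fold and 89.3% at 4-fold, and 29 of 40649 unchanged genes were called. Few genes were changed in them, 150 per fold size over all runs, whereas 57.9% of genes tested were called in the data. The adjusted p depends on how many genes change, so these shares may not hold for the data. The members and gene lists were chosen with earlier results of these data known. Genes are named by 3 rules: the 15 largest called changes per direction with a mean of at least 200 normalized reads in both groups, outside the stress, MYC, p53, NF-kB, cell-cycle and cholesterol lists; up to 4 called members per list and direction with at least 50 normalized reads in the higher group; and the 10 largest gains and losses in RPM (reads scaled to the library total). ARRDC1, CD14, NR3C1 and RARA were chosen after their values were seen. Transcript lengths and gene types (GENCODE, GRCh38) were matched by symbol for 12572 and 12559 of the 14164 genes. Counting is not stated to use strand, so genes that overlap on opposite strands cannot be told apart. Alternatives were other scalings, filters, pseudocounts, the deposited values, fewer libraries and a replicate block. Replicate numbers were not taken as pairs in the main fit. Some genes and 1 list of functions are not reported here.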

Additional observations from a re-analysis of the deposited data

How the results depend on the processing

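Across 17 alternatives the number of genes called for MS177 against DMSO lay between 7293 and 8337, and no gene called changed sign in any of them. Leaving out 1 library gave 7293 to 7961 calls and 1802 to 1996 genes changed at least 2-fold. Scaling by total reads moved the calls to 4761 higher and 3443 lower, with the median of all genes at 0.0877. On the deposited log2 values 662 genes differed by at least 1 unit (500 higher and 162 lower), against 2010 at least 2-fold, because that scale is compressed at low levels. With the replicate block 8299 genes were called (4125 higher and 4174 lower); same-numbered libraries deviated with correlations between -0.062 and 0.06, so the numbers were not taken as pairs. Of 192 genes named in the text or figures and tested, 188 kept their direction and their side of the threshold in every alternative; the exceptions were ARRDC1, IGLC1, NR2F6 and XBP1. The log2 fold change of ARRDC1, which was not called, went from -0.04 to 0.0442 under total-read scaling and lay between -0.11 and 0.0295 with 1 library left out. The medians of 12 of 41 lists changed sign in some alternative, among them lists with a median near 0. With 2 libraries per group, and 78.7% of 2-fold changes found in simulations where few genes changed, a gene not called is not shown to be unchanged. This holds most of all at low levels.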

Other observations

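Receptors that bind hormones used against myeloma or in differentiation were among the changed genes. NR3C1, the glucocorticoid receptor, was at 2407 and 2782 normalized reads with DMSO and 5617 and 6274 with MS177 (log2 fold change 1.20, SE 0.07, limma adjusted p = 9.81e-10). TSC22D3, described above, rose 9.67-fold. RARA, retinoic acid receptor alpha, was at 3106 and 2922 normalized reads with DMSO and 6825 and 5986 with MS177 (log2 fold change 1.09, SE 0.06, limma adjusted p = 7.06e-10), while CYP26A1, which degrades its ligand, fell 3.09-fold. Both receptors lay higher in both MS177 libraries than in the other 6, and both were chosen after their values were seen. Whether either receptor had a part in the change of TSC22D3 or CYP26A1 was not tested.

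By gene type, 31.4% of 11785 protein-coding genes rose and 31.7% fell, against 18.6% and 11.3% of 425 long non-coding genes and 14.2% and 11.4% of 316 pseudogenes. The part of low read numbers in these shares was not tested.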
